A study of Mus musculus with 8 samples.

Results

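The calcium handling genes described here are 10 genes of cardiac excitation-contraction coupling, Cacna1c, Jph2, Ryr2, Casq2, Trdn, Hrc, Atp2a2, Pln, Slc8a1 and Camk2d, chosen by name from the 25929 genes of the expression table and not by their values. Earlier results of these data were known when they were chosen. All 10 were in the table and all 10 passed the filter on low values, which kept 14442 genes that reached 1 FPKM in at least 2 of the libraries. RNA-sequencing was done on hearts of mice in 4 groups of 2 libraries each. WT-Sham and WT-TAC were wild-type C57BL/6 mice after a sham operation or after transverse aortic constriction (TAC), a surgical narrowing of the aorta that imposes pressure overload. Fat1-Sham and Fat1-TAC were transgenic littermates that carry fat-1, an n-3 fatty acid desaturase gene of C. elegans that converts n-6 into n-3 polyunsaturated fatty acids, and they had the same operations. Surgery was at 3 months of age and TAC lasted 8 weeks. The promoter that drives the transgene is not given in the sources used here, and the table lists mouse genes, so the transgene itself was not analysed here. The labels name ventricular tissue whereas the methods name whole hearts. Libraries carry the group name followed by their replicate number, so WT-TAC1 is the library of replicate 1 of WT-TAC.

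In a heart muscle cell, an action potential opens L-type calcium channels in the transverse tubules, and the entering calcium opens ryanodine receptors in the facing membrane of the sarcoplasmic reticulum (SR), the internal calcium store, which releases the calcium that drives contraction. The muscle relaxes when the SERCA pump returns calcium to the SR and the sodium/calcium exchanger carries the rest out of the cell. Lower SERCA2 and altered phospholamban, ryanodine receptor and exchanger activity are textbook features of the failing heart, and pressure overload by TAC is a standard way to produce it in mice.

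The 10 genes are protein coding, and their places are given on the GRCm38 build. Of the genes of sarcolemmal entry and dyad structure, Cacna1c, the pore subunit of the L-type channel, is at chr6:118587240-119196418 on the minus strand. Jph2, junctophilin-2, which ties the transverse tubule to the SR, is at chr2:163336242-163397993 on the minus strand. The release complex is made of Ryr2, the release channel, at chr13:11553102-12106945 on the minus strand, Casq2, the calcium buffer calsequestrin-2, at chr3:102086415-102146514 on the plus strand, Trdn, the anchor protein triadin, at chr10:33080554-33476709 on the plus strand, and Hrc, a histidine-rich calcium-binding protein of the SR, at chr7:45335290-45338974 on the plus strand. Atp2a2, the SERCA2 pump, is at chr5:122453513-122502225 on the minus strand, and Pln, its inhibitor phospholamban, is at chr10:53337667-53345987 on the plus strand. Slc8a1, the sodium/calcium exchanger NCX1, is at chr17:81373105-81738377 on the minus strand, and Camk2d, the kinase subunit that phosphorylates several of these proteins, is at chr3:126596302-126846326 on the plus strand.

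Start sites of 8 of the 10 genes were found in the RefSeq promoter table of the GRCm38.p6 assembly, and Atp2a2 and Trdn had no entry. The 250 bases before each start were searched on both strands for the MEF2 and CArG motifs of muscle genes, for the GATA motif spelled as AGATAA or AGATAG or as TGATAA or TGATAG, for the TATA box TATAAA and for the GC box GGGCGG. No matches of different motifs overlapped in the members' windows. The 3 windows below are shown because they hold the MEF2 match of Casq2, the TATAAA and 2 GATA matches of Pln and the 3 GATA matches of Slc8a1, which the capitals mark.
Casq2 (chr3:102086165-102086414, plus strand): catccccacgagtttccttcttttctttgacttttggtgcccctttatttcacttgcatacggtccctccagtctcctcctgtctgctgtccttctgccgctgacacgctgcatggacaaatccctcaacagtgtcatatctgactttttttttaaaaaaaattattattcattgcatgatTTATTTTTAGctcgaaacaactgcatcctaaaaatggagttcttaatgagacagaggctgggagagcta
Pln (chr10:53337436-53337685, plus strand): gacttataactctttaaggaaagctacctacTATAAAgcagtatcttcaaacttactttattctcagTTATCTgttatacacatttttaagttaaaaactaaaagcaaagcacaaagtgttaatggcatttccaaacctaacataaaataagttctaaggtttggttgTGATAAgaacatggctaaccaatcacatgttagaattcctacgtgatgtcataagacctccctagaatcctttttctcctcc
Slc8a1 (chr17:81738388-81738637, minus strand): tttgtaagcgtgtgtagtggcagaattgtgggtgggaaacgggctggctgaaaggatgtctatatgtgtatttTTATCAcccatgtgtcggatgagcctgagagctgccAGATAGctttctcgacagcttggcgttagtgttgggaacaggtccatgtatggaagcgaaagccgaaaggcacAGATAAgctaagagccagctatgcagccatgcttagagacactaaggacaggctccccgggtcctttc

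A MEF2 match was in the Casq2 window, from position -69 to -60 before the start, and in 2.92% of the 32851 windows of the promoter table. GATA matches were in the windows of 3 genes, Pln, Slc8a1 and Cacna1c, and in 26.5% of all windows. TATAAA was in the Pln window, from -219 to -214, and in 12.4% of all windows. The GC box was in windows of 4 genes, Cacna1c, Jph2, Camk2d and Hrc, and in 32.7% of all windows. No member window held a CArG match, which 1.47% of all windows did. The G and C content was 32.8% for Pln and 41.6% for Casq2, against 68.4% for Camk2d and a median of 52.4% over all windows. A match describes the letters of these windows only.

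The depth was recovered from the FPKM values and lay between 14163994 and 21218331 fragments per library. FPKM are fragments scaled to the length of the gene and to the depth of the library. Each member had at least 1871 fragments in every library, so counting error was small beside the spread between libraries. The sources call the 2 samples of a group independent without naming separate animals, so the p-values measure the spread between these samples. A comparison of 2 with 2 libraries by an exact permutation test cannot give a p below 0.333, and the comparisons between groups therefore rest on limma, which pools the spread over genes and groups. Groups of 2 libraries without overlap, as given below for single genes, reach only a p of 0.333 in that permutation test. The share of all genes without overlap is not given here, so such separations are descriptions only. All 12 cardiomyocyte marker genes were present in every library, with a geometric mean of 1381 FPKM in WT-TAC1 and of 2536 to 3059 FPKM in the other 7 libraries. WT-TAC1 stood apart in other markers as well, whose lists were chosen with earlier results of these data known. The 6 thymocyte genes summed to 1628 FPKM in WT-TAC1 and to 0.928 to 2.63 FPKM elsewhere, and Rag1, which immature lymphocytes need to rearrange their receptor genes, was at 252 FPKM there and at 0 in 6 libraries. Of the 7 skeletal muscle genes all but Myl1 were highest in WT-TAC1, with Tnnt3, the fast troponin T, at 48.4 FPKM there and at 0.398 to 4.73 FPKM elsewhere. The 11 airway and lung genes summed to 1703 FPKM in WT-TAC1, 3820 FPKM in WT-TAC2, 86.9 FPKM in Fat1-Sham1 and 5.58 to 13.9 FPKM in the other 5 libraries. Single genes differed in order, with Bpifa1 at 600 FPKM in WT-TAC1 and 1968 FPKM in WT-TAC2, and Krt18 at 97.6 and 16.5 FPKM. The median deviation of the 11 from a gene's mean over the 8 libraries was 4.08 (log2) in WT-TAC1 and 1.78 in WT-TAC2. The 4 atrial marker genes summed to 810 to 3163 FPKM in 5 libraries and to 27.0 to 45.9 FPKM in Fat1-Sham2, Fat1-TAC1 and Fat1-TAC2. Of the 4, Myl7 and Myl4 followed this split. Bmp10 did not, at 0.0735 FPKM in WT-Sham2 and 0.0797 FPKM in Fat1-Sham2. Nor did Tbx5, at 9.99 FPKM in WT-Sham1 and 11.4 FPKM in Fat1-Sham2. Fewer cardiomyocytes and less RNA per cardiomyocyte cannot be told apart in such bulk samples. The main estimates that rest on WT-TAC1 are also given without it, where WT-TAC2 alone stands for WT-TAC.

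Atp2a2 was the most abundant member, with a mean of 3793 FPKM ± 828 (SD, n = 8 libraries), and it ranked 19th of all genes by mean FPKM. Hrc, Pln and Casq2 followed at 602, 586 and 567 FPKM. Hrc was above Pln in 5 of 8 libraries and Pln above Casq2 in 6 of 8, so these neighbours did not differ beyond their spread. Ryr2 was at 383 FPKM, Trdn at 190 FPKM and Jph2 at 138 FPKM, and each was above the next in 8 of 8 libraries. Slc8a1 at 65.3 FPKM was above Camk2d at 61.9 FPKM in 6 of 8 libraries, and Camk2d was above Cacna1c at 42.7 FPKM in 8 of 8. This order depends on the gene lengths behind the FPKM values. The recovered length was the mean length of all annotated transcripts, to the nearest base, for 9 of the 10 members and for 63.1% of 25851 genes, which made it 4179 bases for Ryr2, whose longest coding transcript has 16814. Per kilobase of the longest coding transcript, Ryr2 was at 95.1 and Jph2 at 137 on the same per-depth scale, which exchanges their order, and Slc8a1 was lowest at 10.3. Comparisons of a gene between libraries do not depend on that length.

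**Figure D1:**
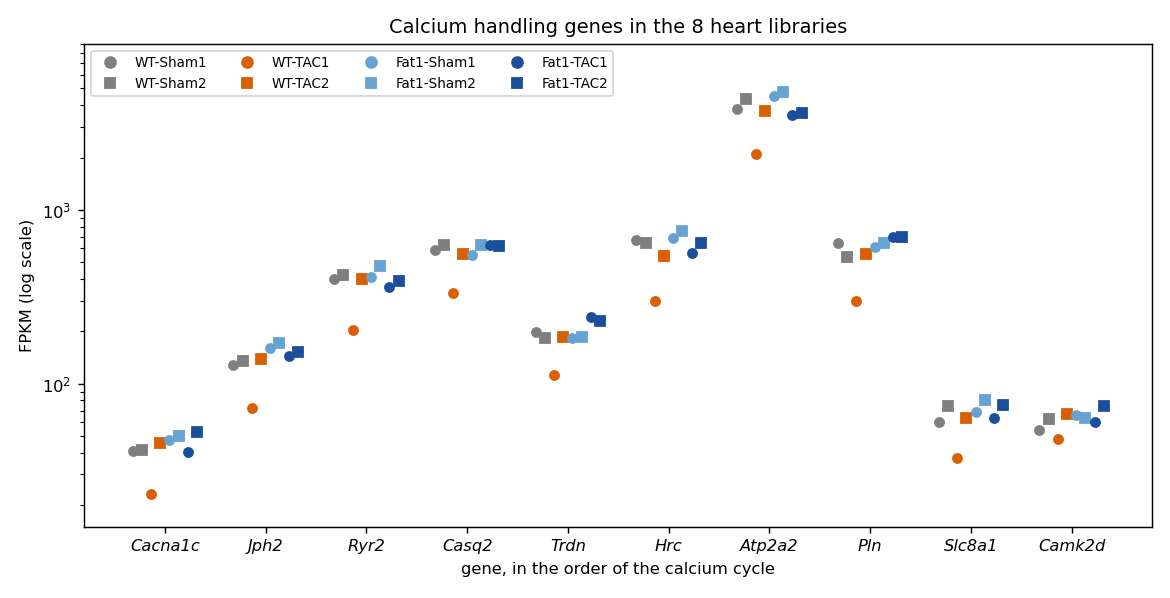
FPKM of the 10 calcium handling genes, on a log axis, in each of the 8 libraries; each point is 1 library, coloured by group, with a circle for replicate 1 and a square for replicate 2. WT-TAC1 is the lowest point of all 10 genes, and the other 7 libraries of each gene lie close together.

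All 10 members had their lowest value in WT-TAC1, as did 15.9% of the 13910 genes with a mean of 1 FPKM or more. Because these genes share the library, the 10 are not 10 independent results. Ryr2 was at 204 FPKM in WT-TAC1 and at 408 FPKM ± 35.1 (SD, n = 7) in the others, a ratio of 0.501. The ratio of WT-TAC1 to the mean of the other 7 libraries lay between 0.462 for Hrc and 0.558 for Trdn in 9 members, and was 0.749 for Camk2d. All 12 cardiomyocyte markers were lowest in WT-TAC1 as well. The median deviation of WT-TAC1 from a gene's mean over the 8 libraries was -0.82 (log2) over the members and -0.86 over the cardiomyocyte markers. In WT-TAC2, the other wild-type TAC library, the members' median deviation was 0.00 and that of the markers was -0.05. The part of the thymocyte, airway and skeletal muscle RNA in the lower member values of WT-TAC1 was not tested.

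**Figure D2:**
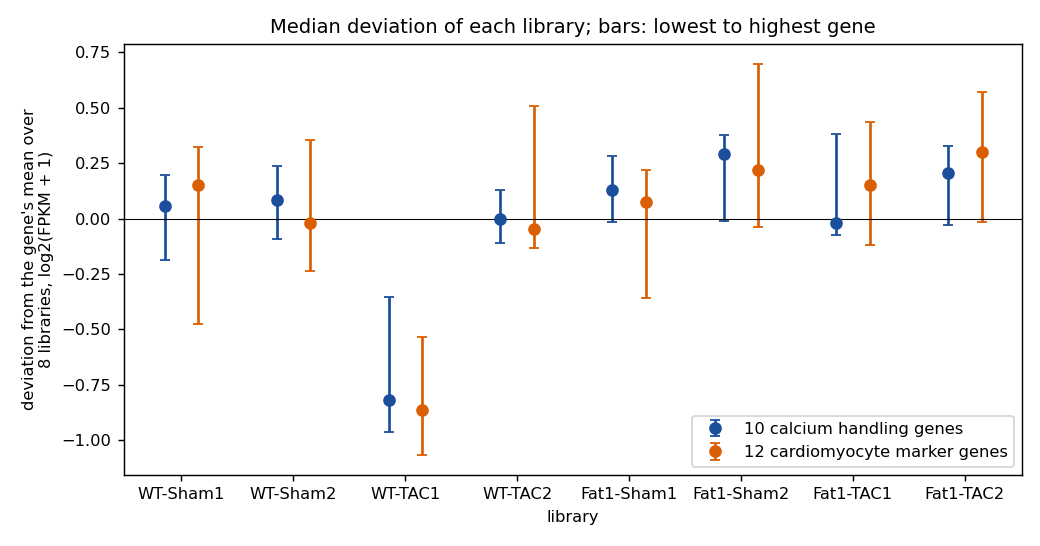
Median deviation of each library from the genes' means over the 8 libraries, on the log2(FPKM + 1) scale, for the 10 calcium handling genes and the 12 cardiomyocyte marker genes; the bars span the lowest to the highest gene. Both sets have medians of -0.82 and -0.86 in WT-TAC1 and between -0.05 and 0.30 in every other library.

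Expressed as a percentage of the geometric mean of the cardiomyocyte markers in the same library, 9 members varied less than in FPKM. The coefficient of variation over the 8 libraries had a median of 20.9% in FPKM (13.2% to 23.3%) and of 9.58% relative to the markers (5.66% for Pln to 18.8% for Camk2d). Camk2d was the exception, since its coefficient was 13.2% in FPKM. It stood at 3.47% of the marker mean in WT-TAC1 and between 2% and 2.64% in the other libraries. Camk2d is also made by cells other than cardiomyocytes, and the part of such cells in these values was not tested.

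The effect of pressure overload in wild-type hearts was assessed by WT-TAC against WT-Sham. Members were called at an adjusted p under 0.1 by limma with Benjamini-Hochberg adjustment over all genes tested and a fold change over 1.5 in either direction. None of the 10 members was called, and 0.935% of all genes tested were. With an unadjusted p under 0.05 and the same fold, 1 member (Hrc) passed, with a negative estimate, beside 23.8% of all genes. Of all genes, 22.7% passed with positive and 1.11% with negative estimates. All 10 estimates were negative, with a median of -0.48 (log2 fold change of FPKM + 1) while the median of all genes was 0.39. The 10 directions are not stable: relative to the cardiomyocyte markers, 5 of them were positive, and without WT-TAC1 the members' median was -0.05 with Cacna1c, Jph2 and Camk2d positive.

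Of the release complex, Hrc was at 669 and 648 FPKM in WT-Sham and at 298 and 540 FPKM in WT-TAC. Its groups did not overlap, and both WT-TAC libraries were below both sham libraries. The log2 fold change was -0.71 ± 0.27 (SE), with an adjusted p of 0.177 by limma, and it was -0.29 without WT-TAC1, with an adjusted p of 0.310. Ryr2 was at 398 and 424 FPKM in WT-Sham and at 204 and 401 FPKM in WT-TAC, so WT-TAC2 lay between the sham libraries. Casq2 was at 588 and 629 FPKM in WT-Sham and at 332 and 555 FPKM in WT-TAC. The Casq2 groups did not overlap, although WT-TAC2 lay near the lower sham library. Trdn was at 198 and 184 FPKM in WT-Sham and at 112 and 186 FPKM in WT-TAC, where WT-TAC2 again lay between the sham libraries.

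Of the uptake genes, Atp2a2 was at 3797 and 4352 FPKM in WT-Sham and at 2092 and 3691 FPKM in WT-TAC. The groups did not overlap, but the log2 fold change of -0.55 ± 0.31 (SE) had a limma adjusted p of 0.244. Without WT-TAC1 the Atp2a2 estimate was -0.14, with a 95% interval from -0.44 to 0.16. Pln was at 648 and 535 FPKM in WT-Sham and at 297 and 559 FPKM in WT-TAC, so WT-TAC2 was between the sham values. Its log2 fold change was -0.53 ± 0.29 (SE), and -0.07 without WT-TAC1.

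Of the genes of the surface membrane and the dyad, Cacna1c was at 41.0 and 41.6 FPKM in WT-Sham and at 23.2 and 45.7 FPKM in WT-TAC, with one TAC library below and the other above both sham libraries. Jph2 showed the same spread, with 127 and 135 FPKM in WT-Sham and 72.3 and 138 FPKM in WT-TAC. Slc8a1 was at 60.0 and 74.3 FPKM in WT-Sham and at 37.2 and 63.3 FPKM in WT-TAC. Camk2d, at 53.8 and 62.2 FPKM in WT-Sham and 47.8 and 67.0 FPKM in WT-TAC, had the estimate nearest to 0, a log2 fold change of -0.03 ± 0.20 (SE), which was 0.21 without WT-TAC1. In these 4 genes the group means of WT-TAC lay below those of WT-Sham, and the spread between the WT-TAC libraries was larger than that difference.

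The same genes were then compared between Fat1-TAC and WT-TAC, the effect of the transgene under pressure overload. This comparison uses the WT-TAC libraries of the previous one, so the estimates of both comparisons are tied. No member was called and 1.43% of all genes were, while 2 members, Trdn and Pln, passed the unadjusted threshold together with 25.2% of all genes. Both members passed with positive estimates, as did 1.72% of all genes, and 23.5% of all genes passed with negative ones. The 10 estimates were positive with a median of 0.52, against -0.40 over all genes. Relative to the cardiomyocyte markers 8 of them were negative, with a median of -0.14, after quantile normalization that of Atp2a2 was, and without WT-TAC1 the median was 0.11, with Ryr2 and Atp2a2 negative.

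Pln was at 695 and 700 FPKM in Fat1-TAC, above both WT-TAC libraries (297 and 559 FPKM). It had the highest estimate among the members, a log2 fold change of 0.77 ± 0.29 (SE), with an adjusted p of 0.164 by limma. Without WT-TAC1 the Pln estimate was 0.32, with a limma adjusted p of 0.284. Trdn was at 243 and 229 FPKM in Fat1-TAC, the highest 2 values of its 8 libraries. Its log2 fold change against WT-TAC was 0.70 ± 0.23 (SE), with an adjusted p of 0.163 by limma, and 0.34 without WT-TAC1, with an adjusted p of 0.235. Hrc at 566 and 645 FPKM and Casq2 at 631 and 616 FPKM in Fat1-TAC also lay above both WT-TAC libraries. Jph2 at 145 and 152 FPKM did so too, whereas Cacna1c (40.4 and 52.6 FPKM), Slc8a1 (63.0 and 75.1 FPKM), Ryr2 (358 and 391 FPKM), Atp2a2 (3507 and 3628 FPKM) and Camk2d (60.3 and 74.5 FPKM) had at least 1 library at or below WT-TAC2.

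**Figure D3:**
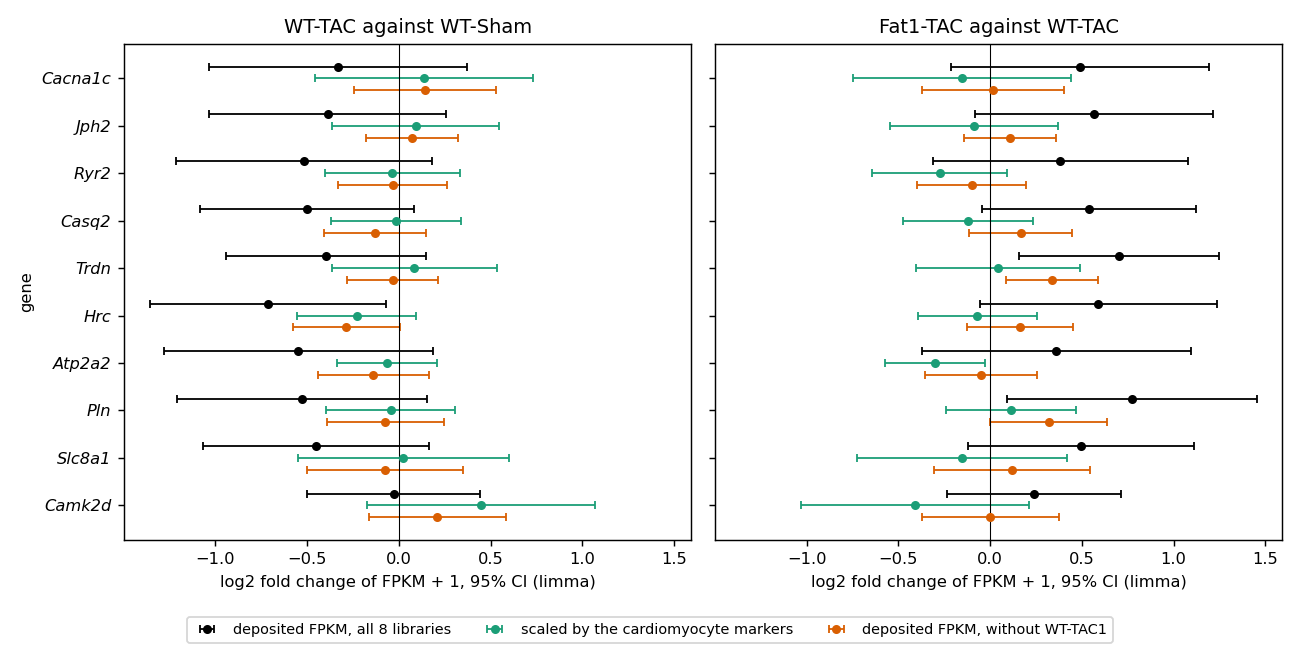
Log2 fold change of FPKM + 1 with its 95% confidence interval (limma) for the 10 calcium handling genes in WT-TAC against WT-Sham (left) and Fat1-TAC against WT-TAC (right), from the deposited values of all 8 libraries, after scaling to the cardiomyocyte markers, and without WT-TAC1. The medians of the 10 estimates are -0.48, 0.00 and -0.05 on the left and 0.52, -0.14 and 0.11 on the right.

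Within the fat-1 mice, where neither group holds WT-TAC1, Fat1-TAC was compared with Fat1-Sham. No member was called, and 0.00692% of all genes were. No member passed the unadjusted threshold, which 1.86% of genes did. The members did not move in one direction: 4 estimates were positive and 6 negative, with a median of -0.09 against 0.02 over all genes. Atp2a2 was at 4493 and 4787 FPKM in Fat1-Sham and at 3507 and 3628 FPKM in Fat1-TAC, without overlap and with little spread within the groups. Its log2 fold change was -0.38 ± 0.31 (SE), a fold of 0.769, with a limma adjusted p of 1. Relative to the cardiomyocyte markers, Atp2a2 stood at 123% and 119% of the marker mean in Fat1-TAC and between 141% and 171% in the other 6 libraries. The log2 fold change on that scale was -0.45, with a 95% interval from -0.72 to -0.18 and a limma adjusted p of 1. Without WT-TAC1, whose spread enters the fit, the FPKM estimate of -0.38 had a limma adjusted p of 0.335. Against WT-TAC on the marker scale the Atp2a2 estimate was -0.30, with an adjusted p of 0.119 by limma. Ryr2 and Hrc too had their 2 lowest values on that scale in Fat1-TAC, both with a limma adjusted p of 1 against Fat1-Sham. Ryr2 was at 12.5% and 12.8% of the marker mean against 14.8% to 16.6% elsewhere, and Hrc at 19.8% and 21.1% against 21.3% to 26.2%. The markers in that mean did not move together, so these percentages depend on the markers chosen. Myh6 was at 15276 and 17694 FPKM in Fat1-Sham and lower, at 12114 and 13232 FPKM, in Fat1-TAC. Myl2 was at 11573 and 12430 FPKM in Fat1-Sham and higher, at 14851 and 14714 FPKM, in Fat1-TAC.

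Trdn was at 184 and 185 FPKM in Fat1-Sham and at 243 and 229 FPKM in Fat1-TAC, without overlap. Its estimate was the highest among the members, a log2 fold change of 0.35 ± 0.23 (SE) with a limma adjusted p of 1, and of 0.304 without WT-TAC1. The Pln groups did not overlap either, at 610 and 644 FPKM in Fat1-Sham and 695 and 700 FPKM in Fat1-TAC. Ryr2 at 412 and 472 FPKM in Fat1-Sham was above Fat1-TAC at 358 and 391 FPKM. Hrc and Jph2 had the same order, with Hrc at 689 and 758 FPKM in Fat1-Sham and Jph2 at 161 and 172 FPKM. The Fat1-Sham values of Casq2 (553 and 630 FPKM) and Slc8a1 (69.0 and 80.5 FPKM) overlapped with those of Fat1-TAC. Those of Cacna1c (47.1 and 49.9 FPKM) and Camk2d (65.8 and 63.6 FPKM) lay between the Fat1-TAC values. The limma intervals of these 4 genes reached from -0.77 (log2, Cacna1c) to 0.66 (Casq2), so differences of that size were not detectable here.

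The baseline effect of the transgene was assessed by Fat1-Sham against WT-Sham. No member was called, and 0% of all genes were. No member passed the unadjusted threshold either, and 0.893% of genes did. The members' median was 0.15 with 8 positive estimates, of which Ryr2 and Pln were negative relative to the cardiomyocyte markers, and the median of all genes was -0.01. Jph2 had the highest estimate, 0.34 ± 0.27 (SE), with both Fat1-Sham libraries (161 and 172 FPKM) above both WT-Sham libraries (127 and 135 FPKM) and a limma adjusted p of 1. Cacna1c, Atp2a2, Hrc and Camk2d did not overlap either, with both Fat1-Sham libraries above both WT-Sham libraries. A separation of 2 from 2 libraries carries little weight, since its exact permutation p is 0.333.

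Over both genotypes, TAC against Sham called no member and 0% of all genes. At the unadjusted threshold 0 members and 8.13% of genes passed, and the members' median was -0.24 against 0.21 over all genes, and -0.04 relative to the cardiomyocyte markers as well as without WT-TAC1. Over both surgeries, fat-1 against wild type called no member and 0.0415% of genes, with 0 members and 7.69% of genes at the unadjusted threshold. The members' median was 0.33 against -0.22 over all genes, but -0.05 relative to the cardiomyocyte markers and 0.13 without WT-TAC1. The interaction of genotype and surgery, the test of whether the response to TAC differed between the genotypes, called no member and 0.0692% of genes, with 0 members and 6.99% of genes at the unadjusted threshold. Its median over the members was 0.31, against -0.37 over all genes. The members' median was -0.24 relative to the cardiomyocyte markers and -0.10 without WT-TAC1. The largest interaction among the members was that of Trdn, 0.75 ± 0.33 (SE), with an adjusted p of 0.494 by limma. Without WT-TAC1 the Trdn interaction was 0.39, with a limma adjusted p of 0.558.

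Ratios between members of the same library do not depend on how the library was scaled, and 8 ratios chosen by role were compared between the 4 TAC and the 4 sham libraries and between the 4 fat-1 and the 4 wild-type libraries. These 16 two-sided exact permutation tests can give a p of 0.0286 at the lowest. Of them, 2 reached that p, and none had an adjusted p under 0.1, the lowest being 0.229. The ratio of Slc8a1 to Atp2a2, of the exchanger to the pump that competes with it for calcium, was one. It was 0.0158 and 0.0171 in WT-Sham, 0.0178 and 0.0172 in WT-TAC, 0.0154 and 0.0168 in Fat1-Sham, and 0.0180 and 0.0207 in Fat1-TAC. All 4 TAC libraries thus lay above all 4 sham libraries, the nearest being WT-TAC2 at 0.01715 and WT-Sham2 at 0.01707. The fold between the mean log2 ratios of TAC and sham was 1.13 (exact permutation p = 0.0286, adjusted p = 0.229). It was 1.06 in wild-type and 1.20 in fat-1 mice. WT-TAC1 did not stand apart in this ratio. The other was Jph2 to Ryr2, the tether to the channel, which was 0.320 and 0.318 in WT-Sham, 0.353 and 0.343 in WT-TAC, 0.390 and 0.363 in Fat1-Sham, and 0.406 and 0.388 in Fat1-TAC. All 4 fat-1 libraries lay above the 4 wild-type libraries, the nearest being Fat1-Sham2 at 0.363 and WT-TAC1 at 0.353. The fold between the mean log2 ratios of fat-1 and wild type was 1.16 (exact permutation p = 0.0286, adjusted p = 0.229).

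The ratio of Pln to Atp2a2, of the inhibitor to its pump, was 0.171 and 0.123 in WT-Sham, 0.142 and 0.152 in WT-TAC, 0.136 and 0.135 in Fat1-Sham, and 0.198 and 0.193 in Fat1-TAC. The Fat1-TAC libraries had the 2 highest ratios of the 8, at 1.45 times Fat1-Sham, while WT-TAC was at 1.01 times WT-Sham. Over both genotypes, TAC against Sham gave a fold of 1.21 (exact permutation p = 0.143, adjusted p = 0.381). The ratio of Trdn to Ryr2 was 0.499 and 0.434 in WT-Sham, 0.549 and 0.465 in WT-TAC, 0.447 and 0.391 in Fat1-Sham, and 0.680 and 0.585 in Fat1-TAC. Fat1-TAC was again highest, at 1.51 times Fat1-Sham, and TAC against Sham gave a fold of 1.28 (exact permutation p = 0.0571, adjusted p = 0.305). Singling out the Fat1-TAC libraries in these 2 ratios followed from their values.

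The other 4 ratios overlapped between TAC and sham and between fat-1 and wild type. Hrc to Ryr2 lay between 1.35 and 1.68, Casq2 to Ryr2 between 1.33 and 1.77, and Cacna1c to Ryr2 between 0.0982 and 0.135 over the 8 libraries. Camk2d to Pln had the widest range, from 0.0830 in WT-Sham1 to 0.161 in WT-TAC1. The adjusted p of the exact permutation tests for these 4 ratios was 0.366 or higher.

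**Figure D4:**
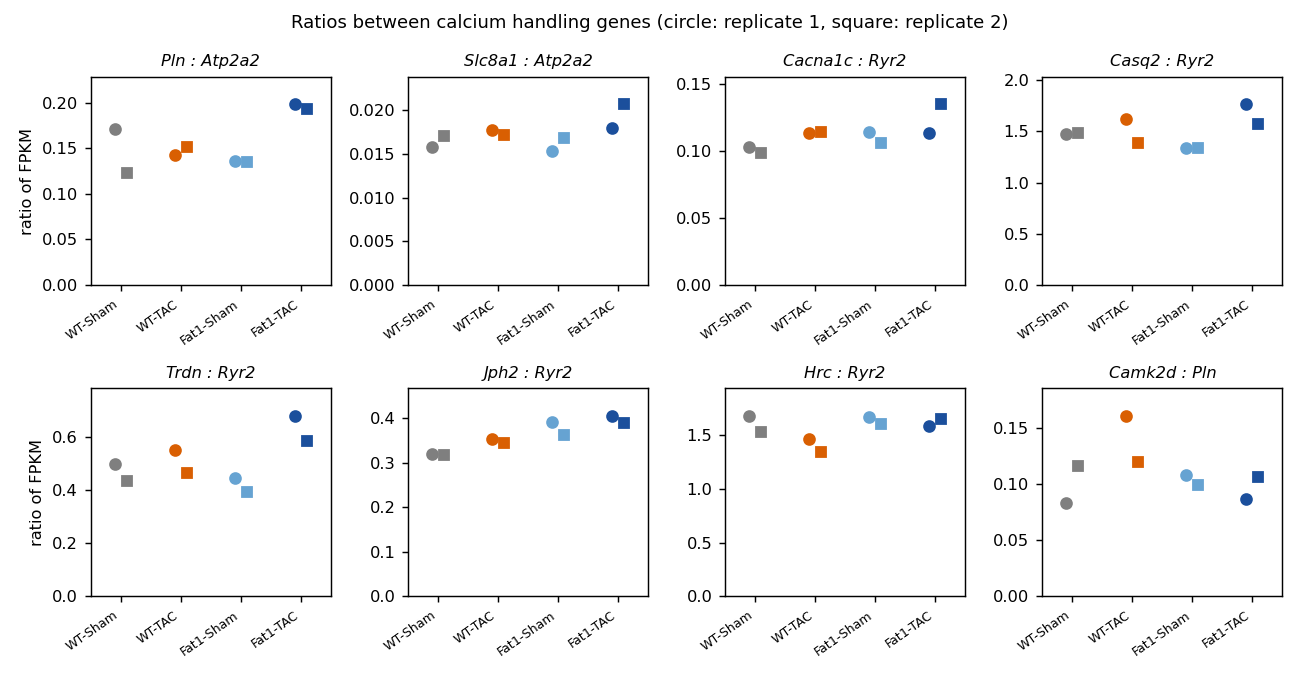
Ratios of FPKM between pairs of calcium handling genes in the 8 libraries, grouped by genotype and surgery; each point is 1 library and every axis starts at 0. For Slc8a1 to Atp2a2 all TAC points lie above all sham points, for Jph2 to Ryr2 all fat-1 points lie above all wild-type points, and for Pln to Atp2a2 and Trdn to Ryr2 the 2 Fat1-TAC points are highest.

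The members were set beside the other genes of their families. Ryr2 held 98.6% to 99.95% of the summed FPKM of the 3 ryanodine receptors, Casq2 98.3% to 99.5% of the calsequestrins, Slc8a1 97.9% to 99.5% of the exchangers, and Jph2 92.0% to 93.6% of the junctophilins. Atp2a2 held 95.7% of the SERCA pumps in WT-TAC1 and 99.7% to 99.9% in the other libraries. In WT-TAC1 Atp2a3, the pump of lymphocytes and other blood cells, held 3.61% and Atp2a1, the pump of fast skeletal muscle, held 0.669%, beside the thymocyte and skeletal muscle genes of that library. Cacna1c held 87.4% of the L-type pore subunits in WT-TAC1 and 92.5% to 95.6% elsewhere. The skeletal muscle genes Ryr1 and Cacna1s were detected at 0.0367 to 1.54 FPKM and 1.57 to 3.49 FPKM.

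The kinase and the pump inhibitors were more mixed. Camk2d held 44.4% ± 3.37 (SD, n = 8) of the CaMKII genes, with 36.7% in WT-TAC1, beside 32.1% for Camk2g, 19.0% for Camk2a and 4.43% for Camk2b. Pln was the largest part of the small SERCA inhibitors in each library, but its share varied from 55.1% to 99.7%. In Fat1-Sham2, Fat1-TAC1 and Fat1-TAC2 Pln held 99.6%, 99.3% and 99.7%, and Sln, sarcolipin, which atrial muscle makes in place of much of its phospholamban, was at 1.13, 3.86 and 1.55 FPKM. In the other 5 libraries Sln was at 126 to 408 FPKM and Pln held 55.1% to 83.5%. These are the libraries whose Myl7 and Myl4 were also high. Myl7, the atrial regulatory light chain, was at 456 to 1945 FPKM there, against 9.62 to 18.3 FPKM in the 3 others. The part of atrial tissue in the Sln values was not tested. Myoregulin, Mrln, held at most 0.283%.

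**Figure D5:**
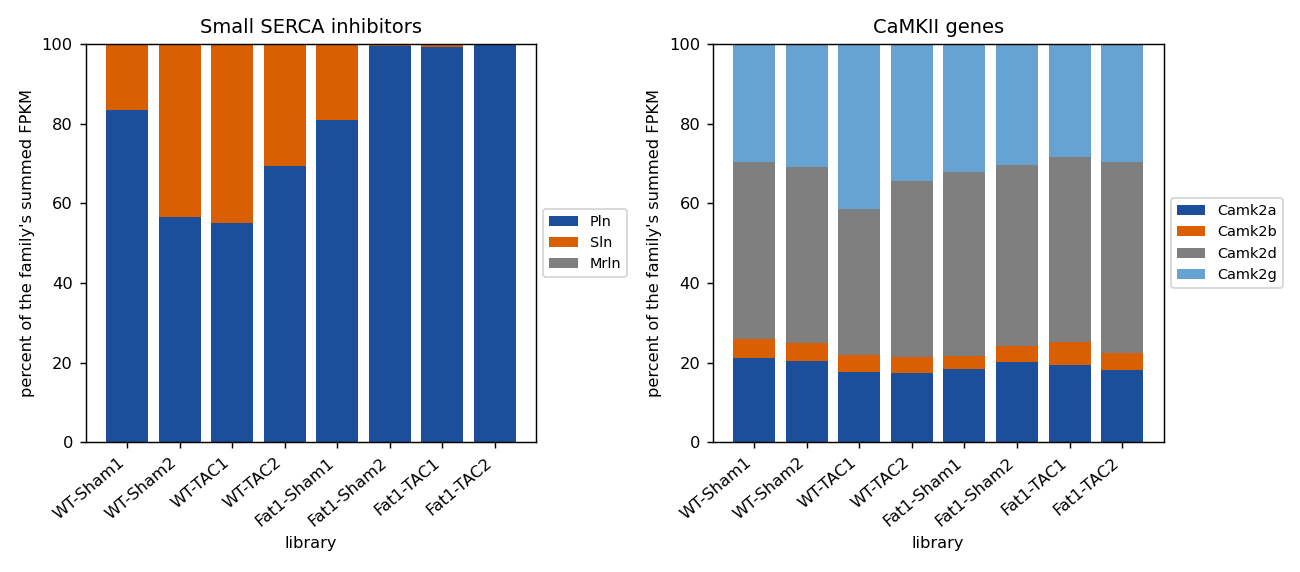
Stacked bars of the share of each gene in the summed FPKM of its family, in percent, for the small SERCA inhibitors (left) and the CaMKII genes (right) in the 8 libraries. Sln holds 16.2% to 44.7% of the inhibitors in 5 libraries and 0.174% to 0.551% in Fat1-Sham2, Fat1-TAC1 and Fat1-TAC2, and Camk2d is the largest CaMKII gene in every library but WT-TAC1, where Camk2g holds 41.5%.

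A wider list of 78 other calcium handling genes was followed in the same fits, of which 70 passed the filter. None was called in any of the 7 comparisons. In WT-TAC against WT-Sham, 13 (18.6%) passed the unadjusted threshold with positive and 1 (1.43%) with a negative estimate, beside 22.7% and 1.11% of all genes. The median estimate of the 70 genes was 0.15, against 0.39 over all genes. All 3 inositol trisphosphate receptors, calcium release channels besides the ryanodine receptors, were among the 13. Itpr2 was at 9.42 and 10.1 FPKM in WT-Sham and at 63.2 and 16.5 FPKM in WT-TAC. Its estimate was 1.64 ± 0.52 (SE, log2) with a limma adjusted p of 0.174, and 0.70 with an adjusted p of 0.251 without WT-TAC1. Itpr1, the most abundant of the 3, was at 42.7 and 29.5 FPKM in WT-TAC against 21.7 and 22.7 FPKM in WT-Sham.

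The largest estimates in that comparison were those of Orai2, Atp2a3 and Itpr2, and without WT-TAC1 they were 0.35, 0.54 and 0.70. Orai2, a pore subunit of store-operated entry, was at 27.0 FPKM in WT-TAC1 and at 0.947 to 1.62 FPKM in the other 7 libraries. Stim1, the store sensor of that entry, was at 36.3 FPKM in WT-TAC1, 19.4 FPKM in WT-TAC2 and 10.1 to 13.3 FPKM elsewhere. Of the 67 listed genes with a mean of 1 FPKM or more, 26 (38.8%) were lowest and 27 (40.3%) highest in WT-TAC1, beside 15.9% and 59.7% of all genes. Srl, sarcalumenin, and Tmem38a, the TRIC-A channel, were lowest there, at 0.551 and 0.513 times the mean of the other libraries. The single gene with a negative estimate past the unadjusted threshold was Rcan1, an inhibitor of the phosphatase calcineurin and itself a target of it. Rcan1 was at 43.1 and 31.7 FPKM in WT-Sham, 20.1 and 26.7 FPKM in WT-TAC, 42.8 and 58.5 FPKM in Fat1-Sham, and 26.9 and 31.7 FPKM in Fat1-TAC. Its log2 fold change was -0.65 ± 0.24 (SE) in wild-type and -0.76 ± 0.24 (SE) in fat-1 mice, with limma adjusted p of 0.176 and 1. Without WT-TAC1 the wild-type estimate of Rcan1 was -0.46, with a limma adjusted p of 0.370.

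Between Fat1-TAC and WT-TAC, 2 genes of this list (2.86%) passed the unadjusted threshold with positive and 21 (30.0%) with negative estimates, beside 1.72% and 23.5% of all genes. The 2 were S100a1, a calcium sensor that binds the ryanodine receptor and SERCA2, and Cav3, the caveolin of muscle. S100a1 was at 853 and 791 FPKM in Fat1-TAC and at 385 and 619 FPKM in WT-TAC, and at 639 to 784 FPKM in the sham libraries, with a log2 fold change of 0.75 ± 0.25 (SE) and a limma adjusted p of 0.163, and 0.41 with an adjusted p of 0.248 without WT-TAC1. Cav3 was at 41.8 and 46.8 FPKM in Fat1-TAC against 21.6 and 36.1 FPKM in WT-TAC, and its estimate of 0.64 was 0.28 without WT-TAC1. Fxyd1, phospholemman, a small regulator of ion transport in the surface membrane, had the third largest increase, with 512 and 520 FPKM in Fat1-TAC against 268 and 457 FPKM in WT-TAC. Sln had the largest decrease, a log2 fold change of -6.12 ± 1.69 (SE) with a limma adjusted p of 0.152, in the libraries that differed in atrial markers. Atp2a1 at -2.06 and Orai2 at -2.02 followed, both of them highest in WT-TAC1, and were -0.60 and -0.31 without it. For TAC over both genotypes 2 listed genes passed the unadjusted threshold with positive and 2 with negative estimates (2.86% each), beside 7.67% and 0.464% of all genes. For fat-1 over both surgeries the counts were 0 and 8 (11.4%), beside 0.305% and 7.39%, and for the interaction 0 and 3 (4.29%), beside 0.609% and 6.38%.

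In Fat1-TAC against Fat1-Sham, 2 of the 70 genes (2.86%) passed the unadjusted threshold, both with negative estimates, beside 0.533% of all genes in that direction. They were Rcan1 and Rrad, a small GTPase that restrains the L-type channel. Rrad was at 195 and 163 FPKM in Fat1-Sham, 86.7 and 106 FPKM in Fat1-TAC, 124 and 96.3 FPKM in WT-Sham, and 63.7 and 92.2 FPKM in WT-TAC, so both TAC groups lay below their sham group without overlap. The fat-1 log2 fold change of Rrad was -0.89 ± 0.23 (SE), with an adjusted p of 1 by limma. Rrad also was the 1 gene of the list (1.43%) past the unadjusted threshold in Fat1-Sham against WT-Sham, at 0.70 ± 0.23 (SE), where 0.201% of all genes passed with positive estimates. Of the most abundant genes of the other roles, Speg, a kinase of the dyad, lay at 69.4 to 154 FPKM and was lowest in WT-TAC1. Smdt1, a subunit of the mitochondrial uniporter, lay at 187 to 236 FPKM and Prkar1a, a regulatory subunit of protein kinase A, at 256 to 307 FPKM. Cacna1h, a T-type channel, was at 6.13 to 18.0 FPKM in the 5 libraries with high Myl7 and Myl4 and at 2.66 to 4.24 FPKM in the 3 libraries low in them.

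The genes whose pattern over the 8 libraries was most like that of the members' mean were sought among 6903 other genes with a mean of 10 FPKM or more. By Pearson's r of log2(FPKM + 1) they were Crip2 (0.994), Sgca (0.993), Asph (0.993), Ndrg2 (0.993) and Tmem38a (0.992). Without WT-TAC1 the same correlations were 0.909, 0.873, 0.876, 0.911 and 0.881 over 7 libraries. Asph encodes junctin, a partner of triadin, besides an enzyme, and Sgca encodes a sarcoglycan of the muscle membrane. All genes of a library share its depth and tissue makeup, which these correlations do not separate, and 8.21% of the genes had an r over 0.9. Each member is part of the mean it was compared with, which raises its r above that of a gene outside the mean. The members themselves ranged from 0.796 for Camk2d to 0.980 for Jph2 with all libraries. Without WT-TAC1 they ranged from -0.02 for Trdn to 0.886 for Slc8a1.

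The 5 marker genes of the response to TAC did not share a pattern. Myh7, the slow myosin heavy chain, was at 28.9 and 47.3 FPKM in WT-Sham, 50.7 and 89.0 FPKM in WT-TAC, 31.1 and 30.5 FPKM in Fat1-Sham, and 76.0 and 120 FPKM in Fat1-TAC, without overlap between TAC and sham in either genotype. Nppb, the gene of B-type natriuretic peptide, was at 175 to 418 FPKM in the sham libraries and at 178 to 264 FPKM in the TAC libraries. Ankrd1, a stress-responsive muscle gene, was at 452 and 486 FPKM in WT-Sham, 401 and 549 FPKM in WT-TAC, 438 and 449 FPKM in Fat1-Sham, and 575 and 606 FPKM in Fat1-TAC. Acta1, skeletal actin, was at 183 and 326 FPKM in WT-Sham, 138 and 185 FPKM in WT-TAC, 109 and 276 FPKM in Fat1-Sham, and 421 and 262 FPKM in Fat1-TAC. Nppa, the gene of atrial natriuretic peptide, was at 106 to 299 FPKM in the 5 libraries with high Myl7 and Myl4 and at 9.04 to 13.6 FPKM in the other 3. The 5 adipocyte genes summed to 523 and 671 FPKM in WT-TAC, above all other libraries, to 163 and 229 FPKM in WT-Sham, to 215 and 75.3 FPKM in Fat1-Sham, and to 5.43 and 262 FPKM in Fat1-TAC. The 6 fibroblast genes, at 549 to 617 FPKM in WT-Sham1 and the fat-1 libraries and 987 to 1023 FPKM in the other 3, differed between the WT-Sham libraries too. The endothelial genes summed to 230 to 352 FPKM, the macrophage genes to 135 to 261 FPKM, the smooth muscle genes to 56.1 to 268 FPKM and the neuronal genes to 10.9 to 25.1 FPKM. The part of these cell types in the results was not tested.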

How the data were processed

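RNA-sequencing of 8 mouse heart libraries was analysed, 2 in each of 4 groups. The authors deposited a table of FPKM values for 25929 genes, and the labels' processing notes name HISAT2 and the mm10 and GRCm38 builds, while the counting program and annotation are not given in the sources used here. For 25928 genes the FPKM values were whole fragments (within 0.01) at a single whole gene length, which gave the depth per library. Of 300 genes moved at random, 0.0% did so. These were all above 0 in every library and were searched over a shorter range of lengths. The random check therefore does not cover genes seen in few libraries.

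Because the table holds FPKM and not counts, limma (version 3.58.1, R 4.3.3, lmFit and eBayes with trend) was run on log2(FPKM + 1) with all 8 libraries and 4 group means, for genes that reached 1 FPKM in 2 libraries. Fold changes are on that scale and understate those of low genes. A call needed a fold over 1.5 and an adjusted p under 0.1 (Benjamini-Hochberg). Ratios were tested by exact permutation (scipy 1.17.1) and adjusted over 16 tests. The scripts were tested on simulated data. Named genes were the members, their families, the markers, and from the wider list any called gene, the most abundant of each role and the 3 largest increases and decreases in WT-TAC against WT-Sham and Fat1-TAC against WT-TAC. They also include the 5 genes most like the members' mean. A gene that the rule names is not reported here. Rcan1 and Rrad in fat-1 mice, and Itpr1 and Stim1 in WT-TAC, were described after their values were seen. Gene places came from the GENCODE vM21 annotation and promoters from RefSeq (GRCm38.p6). Same-numbered libraries of different groups did not deviate together (correlations from -0.135 to 0.0236). The members and lists were chosen with earlier results of these data known. Alternatives were other scalings, filters, a pseudocount of 0.1, only the groups compared, a replicate block, an unmoderated test, limma-voom on the recovered fragments, and leaving out each library.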

Additional observations from a re-analysis of the deposited data

How the results depend on the processing

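No result that the comparisons rest on lost a call under the alternatives run, because no member was called with the deposited values. Directions turned with the scaling and with single libraries. Relative to the cardiomyocyte markers, the 10 members had a median (log2 fold change) of 0.0032 between WT-TAC and WT-Sham, -0.14 in Fat1-TAC against WT-TAC, -0.053 in fat-1 against wild type and -0.24 for the interaction. By the median of ratios it was -0.95 and 0.98 in the WT-TAC comparisons and 0.73 for the interaction. Leaving out single libraries, the members' median ranged from -0.86 (without WT-TAC2) to -0.054 (without WT-TAC1) in WT-TAC against WT-Sham, from 0.11 to 0.93 in Fat1-TAC against WT-TAC, from -0.10 to 0.75 for the interaction, from 0.13 to 0.51 in fat-1 against wild type, and from -0.22 to 0.036 (without Fat1-TAC1) in Fat1-TAC against Fat1-Sham.

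Members called ranged from 0 to 9 in both WT-TAC comparisons, 0 to 8 for the interaction and 0 to 3 over both genotypes or surgeries, and all calls came without WT-TAC2, where WT-TAC1 alone stands for its group and is assumed to vary like the others. There 50.5% and 53.8% of all genes were called in the WT-TAC comparisons, 45.8% for the interaction, and 25.5% and 25.6% over both genotypes and surgeries. Wider genes called ranged from 0 to 36, 0 to 38, 0 to 31, 0 to 15 and 0 to 19 in the same order.

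Estimates that turned direction relative to the cardiomyocyte markers were, in WT-TAC against WT-Sham, Trdn 0.084, Cacna1c 0.14, Slc8a1 0.024, Jph2 0.092 and Camk2d 0.45, in Fat1-TAC against WT-TAC, Ryr2 -0.27, Casq2 -0.12, Hrc -0.069, Atp2a2 -0.30, Cacna1c -0.15, Slc8a1 -0.15, Jph2 -0.087 and Camk2d -0.41, Camk2d -0.018 in Fat1-TAC against Fat1-Sham, and Ryr2 -0.0007 and Pln -0.014 in Fat1-Sham against WT-Sham. Quantile normalization gave Atp2a2 -0.078 in Fat1-TAC against WT-TAC. Leaving out single libraries turned Cacna1c (-0.81 to 0.14), Jph2 (-0.85 to 0.072) and Camk2d (-0.27 to 0.21) in WT-TAC against WT-Sham, Ryr2 (-0.10 to 0.87) and Atp2a2 (-0.049 to 0.77) in Fat1-TAC against WT-TAC, Casq2 (-0.015 to 0.17), Cacna1c (-0.26 to 0.12), Slc8a1 (-0.24 to 0.011) and Camk2d (-0.10 to 0.20) in Fat1-TAC against Fat1-Sham, and Casq2 (-0.14 to 0.051), Trdn (-0.11 to 0.0042) and Pln (-0.048 to 0.23) in Fat1-Sham against WT-Sham. In fat-1 against wild type it turned the log2 ratios of Slc8a1 to Atp2a2 (-0.021 to 0.12), Casq2 to Ryr2 (-0.078 to 0.057) and Trdn to Ryr2 (-0.053 to 0.21). Apart from the scaling and the library left out, the cause was not tested.

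With the replicate number as a block, 0 members were called and the calls over all genes went from 135 to 52 in WT-TAC against WT-Sham and from 206 to 52 in Fat1-TAC against WT-TAC. With the Fat1-Sham numbers exchanged, a crossed pairing chosen after seeing the data, 53 and 206 genes and 0 members were called. The cardiomyocyte scaling of the wider list was added after seeing the data too. Calls over all genes in these 2 comparisons were 7 and 92 by limma-voom, 33 and 33 with a pseudocount of 0.1, 9 and 15 at a mean of 5 FPKM or more, 20 and 25 without WT-TAC1, and 7065 and 7523 without WT-TAC2.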
